A study of Mus musculus with 16 samples.

Results

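The 10 genes described here, Pax6, Dbx1, Dbx2, Nkx6-1, Nkx6-2, Nkx2-2, Irx3, Gsx1, Gsx2 and Msx3, encode transcription factors that divide the embryonic neural tube into progenitor domains from its floor to its roof. They were chosen by name among the 56748 genes of the expression table, and each symbol matched 1 gene. All 10 had at least 0.5 FPKM in at least 4 libraries and so were among the 17205 genes tested. FPKM are read fragments corrected for the length of the gene and for a total set for each library. RNA came from the dissected trunk region or caudal region of mouse embryos at E11.5. The embryos were Ednrb+/+ (WT) or Ednrb-/-, which lack a working endothelin receptor B, a receptor used by migrating neural crest cells and known for its role in pigmentation. The 4 groups, WT trunk, Ednrb-/- trunk, WT caudal and Ednrb-/- caudal, had 4 libraries each, labelled as biological replicates. The strain, the Ednrb allele, any pooling and the embryo behind each library are not stated, so p-values measure the spread between these libraries only.

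In the developing spinal cord, Sonic hedgehog from the notochord and floor plate and BMP and Wnt signals from the roof plate set the positions at which these genes are active. Factors switched on ventrally (Nkx2-2, Nkx6-1, Nkx6-2) and factors held out of the ventral-most cells (Pax6, Irx3, Dbx1, Dbx2) repress each other, which sharpens the borders between domains. Dorsally, Gsx1 and Gsx2 mark progenitors of dorsal interneurons and Msx3 marks the dorsal ventricular zone. Each domain then makes its own class of neuron. A whole trunk or caudal piece holds neural tube among much other tissue, and in bulk RNA a smaller number of progenitors and less RNA per progenitor cannot be told apart.

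Libraries held between 34883821 and 43444905 reads in listed genes. Ednrb itself was 35.8 to 41.8 FPKM in WT trunk and 26.2 to 33.5 FPKM in WT caudal libraries, against 3.37 to 4.80 and 1.59 to 3.44 FPKM in the Ednrb-/- trunk and caudal libraries. The regions were also separate: 13 of 14 posterior Hox genes were lower in trunk in each genotype. Of all genes tested, 8.35% were lower in trunk in WT and 18.9% in Ednrb-/- embryos. Some Hox genes varied within a group. Among WT trunk libraries Hoxd10 ran from 0.298 to 6.13 FPKM and Hoxa10 from 5.83 to 16.9, while Hoxa9 ran from 18.7 to 22.8. Whether the level of dissection varied between libraries was not tested. In 3 libraries (Ednrb-/- trunk 3, WT caudal 2 and Ednrb-/- caudal 3) the female transcript Xist and the Y-linked gene Ddx3y were both at or above 5 FPKM. Calls of the 10 factors that change without these 3 libraries are given with the value without them. Xist was at 135 FPKM or more in WT trunk 1 and 4, Ednrb-/- trunk 2 and WT caudal 1. It was at most 5.72 FPKM in the Ednrb-/- caudal libraries. Sex was thus not balanced between the groups, and its part in the differences was not tested.

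The promoters of 4 members are shown because these are the genes with a difference that passed the test under every setting that gave a value: Pax6, Dbx1 and Gsx2 between WT regions, Gsx2 with genotype in trunk, and Nkx2-2 between Ednrb-/- regions. RefSeq on GRCm38.p6 gave 11 promoters for 10 of 10 members, and the 250 bases before each start are printed 5′ to 3′ on the gene's strand. Capitals mark 4 short motifs found on either strand: TATAAA (the core promoter box bound by TBP), CCAAT (bound by NF-Y), ACAAT (the core bound by Sox factors) and CANNTG (the E-box of bHLH factors). The fifth motif, TAATTA (a homeodomain core), had no match in these 5 sequences.
Pax6 first start, chr2:105668646-105668895, plus strand: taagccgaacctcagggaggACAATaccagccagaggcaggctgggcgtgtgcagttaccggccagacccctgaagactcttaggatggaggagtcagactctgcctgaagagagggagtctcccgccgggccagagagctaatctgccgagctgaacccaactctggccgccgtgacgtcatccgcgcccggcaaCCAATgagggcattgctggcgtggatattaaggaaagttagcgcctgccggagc
Pax6 second start, chr2:105682213-105682462, plus strand: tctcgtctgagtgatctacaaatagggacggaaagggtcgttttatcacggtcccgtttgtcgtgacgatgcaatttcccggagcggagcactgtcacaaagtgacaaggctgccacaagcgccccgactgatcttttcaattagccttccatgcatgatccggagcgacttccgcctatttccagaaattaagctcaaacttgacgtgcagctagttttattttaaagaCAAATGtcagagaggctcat
Dbx1, chr7:49636836-49637085, minus strand: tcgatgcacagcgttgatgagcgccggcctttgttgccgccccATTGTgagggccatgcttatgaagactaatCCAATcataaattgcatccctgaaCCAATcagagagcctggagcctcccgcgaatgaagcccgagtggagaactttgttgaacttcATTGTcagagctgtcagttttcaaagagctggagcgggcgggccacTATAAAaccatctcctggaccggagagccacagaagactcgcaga
Nkx2-2, chr2:147186403-147186652, minus strand: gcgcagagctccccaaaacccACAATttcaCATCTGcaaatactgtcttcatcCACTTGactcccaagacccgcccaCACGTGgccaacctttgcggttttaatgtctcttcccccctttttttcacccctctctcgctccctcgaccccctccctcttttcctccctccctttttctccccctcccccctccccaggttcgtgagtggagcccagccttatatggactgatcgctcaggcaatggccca
Gsx2, chr5:75075351-75075600, plus strand: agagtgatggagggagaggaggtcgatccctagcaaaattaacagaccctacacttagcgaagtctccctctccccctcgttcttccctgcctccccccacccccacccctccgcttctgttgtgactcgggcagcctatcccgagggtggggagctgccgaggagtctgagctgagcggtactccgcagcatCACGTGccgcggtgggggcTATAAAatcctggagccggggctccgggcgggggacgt
TATAAA began 45 bases before the start of Dbx1 and 38 bases before that of Gsx2, and 12.37% of 32851 RefSeq promoters of this length held it. CCAAT occurred 177 and 153 bases before the Dbx1 start and 54 bases before the first Pax6 start, against a share of 33.85% of promoters. ACAAT lay 207 and 91 bases before the Dbx1 start, 229 before that of Nkx2-2 and 230 before the first of Pax6 (27.66% of promoters). E-boxes, which 66.22% of promoters held, were 220, 197 and 173 bases before the Nkx2-2 start, 57 before that of Gsx2 and 20 before the second of Pax6. TAATTA was in 4.84% of promoters. The 11 member promoters held between 8 and 30 CpG pairs, and the median over all promoters was 6. These matches describe letters only, and no factor's binding was measured.

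Levels differed widely among the members. Over the 16 libraries Irx3 had the highest mean (12.5 FPKM), followed by Msx3 (9.93), Dbx1 (5.68), Nkx6-1 (4.47) and Pax6 (3.19). Gsx1 averaged 1.42 FPKM, and Nkx2-2 (0.745), Gsx2 (0.619), Dbx2 (0.536) and Nkx6-2 (0.450) had means below 1 FPKM, although Gsx2 and Nkx2-2 reached 1.26 and 1.14 FPKM in single WT trunk libraries. Fewest reads supported Nkx6-2, with 10 to 61 per library, and Gsx2, with 13 to 89.

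The order shifted between groups. In WT trunk Msx3 (mean 11.4 FPKM) and Irx3 (9.20) overlapped in their ranges at the top, whereas in Ednrb-/- trunk Irx3 (12.3) lay above Msx3 (8.82) with no overlap. Neighbours that overlapped in WT trunk were also Dbx1 and Nkx6-1, Nkx6-1 and Pax6, Gsx1 and Gsx2, Gsx2 and Nkx2-2, and Nkx6-2 and Dbx2. In Ednrb-/- trunk the overlapping neighbours were Dbx1 and Nkx6-1, Nkx6-1 and Pax6, Gsx1 and Nkx2-2, and Gsx2 and Dbx2. Gsx2 was the seventh gene in WT trunk and the last in both caudal groups. In WT caudal tissue the neighbours of the top 5, from Irx3 to Pax6, each overlapped, as did those from Dbx2 down to Gsx2. In Ednrb-/- caudal tissue Irx3, Msx3 and Dbx1 were separated from each other, Dbx1 and Nkx6-1 overlapped, and so did Dbx2, Nkx6-2, Nkx2-2 and Gsx2 along the order.

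**Figure D1:**
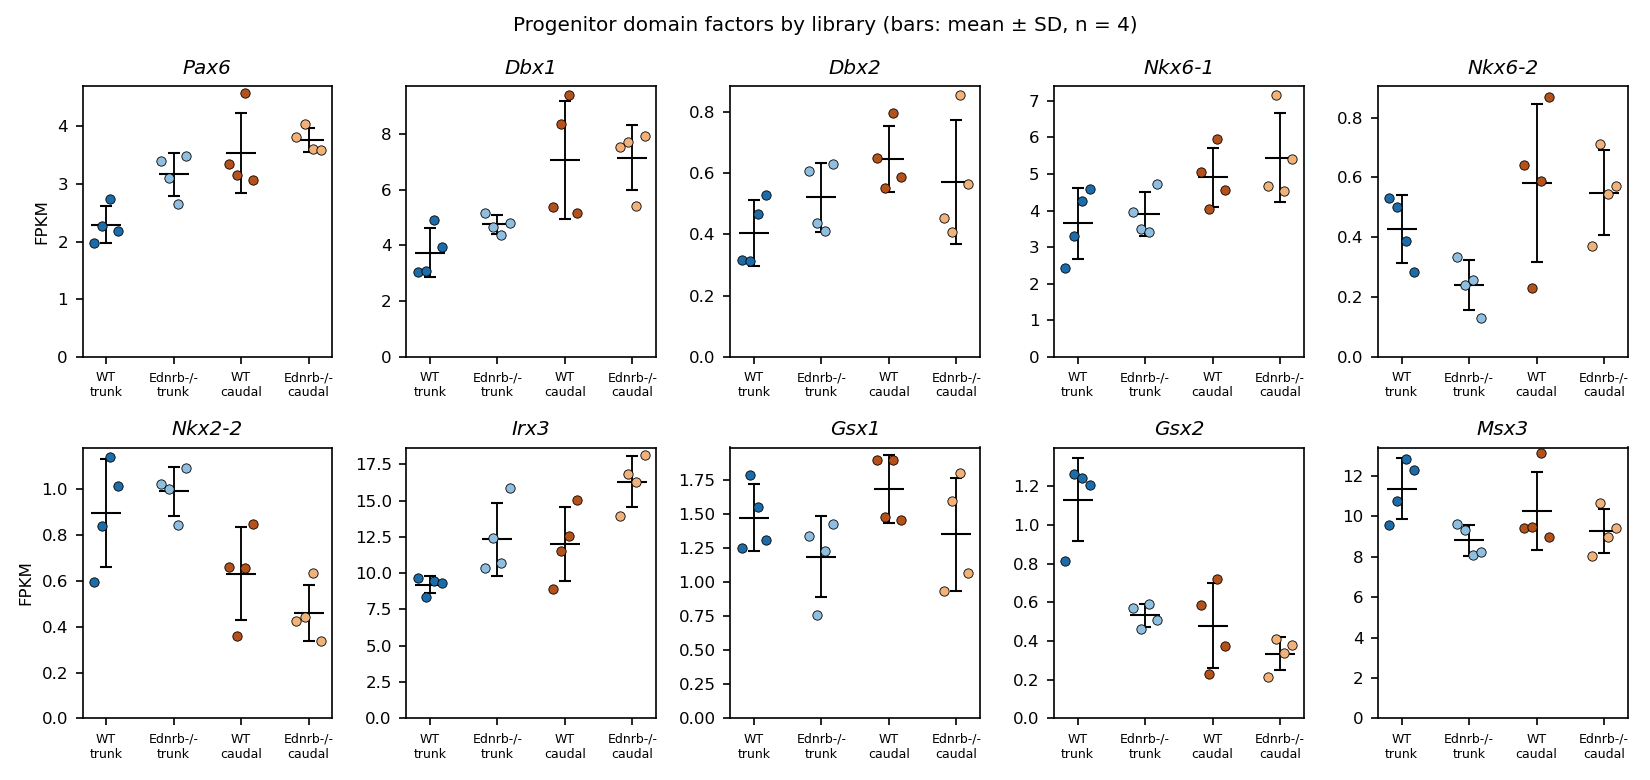
FPKM (vertical axes, each from 0) of the 10 factors in each library of the 4 groups, with the mean and SD (n = 4) as bars. Gsx2 is highest in the WT trunk libraries (0.813 to 1.26), Nkx2-2 is higher in the Ednrb-/- trunk than the Ednrb-/- caudal libraries, and Dbx1 and Pax6 are lowest on average in WT trunk.

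The 4 comparisons were made on the scale log2(FPKM + 0.5): Ednrb-/- against WT in each region, and trunk against caudal in each genotype. All were taken from 1 limma model of 16 libraries, with p-values adjusted by Benjamini-Hochberg over all genes tested and called under 0.05. Differences are given with their SE, and folds are those of FPKM + 0.5. On this scale the differences and folds of genes near or below 1 FPKM are understated.

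Loss of Ednrb in the caudal region was accompanied by a difference in 1 of the 10 factors. Irx3 rose by 0.44, and the other 9, between -0.26 and 0.13, did not pass. That is 1 of 10 called where 41.6% of all genes tested were called (21.7% higher and 19.9% lower in Ednrb-/-). The median difference of the members was -0.06, against 0.0068 over all genes tested. None of the 10 had groups without overlap, and 37.3% of all genes did.

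In the trunk, 3 of the 10 factors differed with genotype. Pax6 rose by 0.39 in Ednrb-/- trunk, and of the 3 dorsal factors Gsx2 and Msx3 fell by 0.65 and 0.35, while Gsx1 did not pass (-0.24, adjusted p = 0.32). All genes tested were called in 25.1% of cases (12.2% higher, 13.0% lower), so 3 of 10 is close to the background. Gsx2 and Irx3 had groups that did not overlap, 2 of 10 against 28.1% of all genes. The members' median was 0.11 and that of all genes 0.0040.

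Between regions of WT embryos, 3 of the 10 factors differed. Gsx2 was higher in trunk by 0.75, while Pax6 and Dbx1 were higher in caudal tissue. Over all genes 18.0% were called (9.69% higher and 8.35% lower in trunk). Groups did not overlap for Pax6, Dbx1, Dbx2 and Gsx2, 4 of 10 against 21.3% of all genes. The members' median was -0.27 and the median of all genes 0.0023.

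Between regions of Ednrb-/- embryos, 4 of the 10 factors differed. Nkx2-2 was higher in trunk by 0.64, and Dbx1, Nkx6-2 and Irx3 were lower in trunk. The background was 36.2% called (17.3% higher, 18.9% lower in trunk), which is near 4 of 10. Groups did not overlap for Pax6, Dbx1, Nkx6-2, Nkx2-2 and Gsx2, 5 of 10 against 33.8% of all genes. The medians were -0.17 for the members and -0.012 for all genes. The genotype and region comparisons share libraries, so the same group mean enters several of them.

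**Figure D2:**
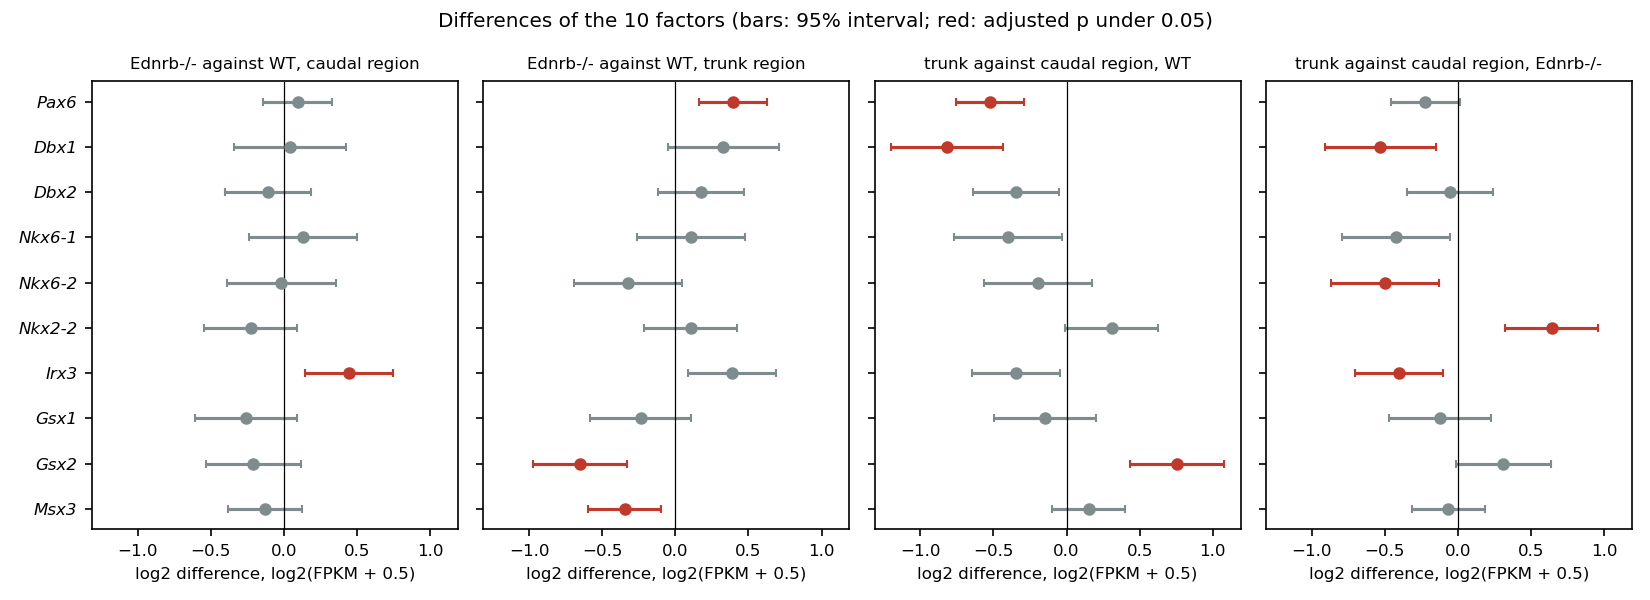
Log2 differences of the 10 factors (horizontal axes, log2(FPKM + 0.5)) with 95% intervals from limma in the 4 comparisons, red where the adjusted p is under 0.05. Gsx2 shows the largest fall in trunk with genotype (-0.65) and the largest excess in WT trunk over WT caudal tissue (0.75).

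Nkx2-2 marks the most ventral progenitors beside the floor plate, which make V3 interneurons, and is induced by high Sonic hedgehog. The gene (ENSMUSG00000027434) is on the minus strand of chromosome 2, 147019466 to 147036163 in mm39. The WT trunk libraries 1 to 4 had 0.597, 0.842, 1.14 and 1.01 FPKM and the Ednrb-/- trunk libraries 1.02, 1.00, 0.845 and 1.09 FPKM. Those groups overlapped throughout. The WT caudal libraries had 0.660, 0.361, 0.656 and 0.850 FPKM and the Ednrb-/- caudal libraries 0.425, 0.443, 0.633 and 0.339 FPKM. In Ednrb-/- embryos each trunk library was above each caudal one. The difference between regions was 0.64 ± 0.15 in Ednrb-/- (95% interval 0.32 to 0.96, adjusted p = 0.0037), and 34 to 127 reads per library lay behind it. In WT embryos it was 0.31 ± 0.15 (adjusted p = 0.18), and the interval of the genotype difference in caudal tissue ran from -0.55 to 0.09. Without the 3 libraries holding Xist and Ddx3y, the genotype difference in caudal tissue passed at -0.44 (adjusted p = 0.03).

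Nkx6-1 and Nkx6-2 cover a broader ventral part of the ventricular zone, where Nkx6-1 is needed for motor neurons and V2 interneurons, and Nkx6-2 overlaps with it in part. Nkx6-1 had group means from 3.65 ± 0.982 FPKM (SD, n = 4) in WT trunk to 5.44 ± 1.21 FPKM in Ednrb-/- caudal tissue, and none of the 4 comparisons passed. It was 1.32-fold lower in trunk than in caudal tissue in WT (-0.40 ± 0.17, adjusted p = 0.12). In Ednrb-/- embryos it was 1.34-fold lower (-0.42 ± 0.17, adjusted p = 0.068). That difference passed with only the groups compared in the fit (adjusted p = 0.047), without Ednrb-/- trunk 4 (0.042) and, just under the threshold before rounding, without Ednrb-/- caudal 3 (0.05). Its genotype intervals, -0.24 to 0.50 in caudal tissue and -0.26 to 0.47 in trunk, both include 0.

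Nkx6-2 stood at 0.532, 0.502, 0.389 and 0.284 FPKM in WT trunk and at 0.335, 0.239, 0.257 and 0.130 FPKM in Ednrb-/- trunk. In WT caudal libraries it was 0.640, 0.229, 0.588 and 0.869 FPKM, and in Ednrb-/- caudal libraries 0.370, 0.712, 0.544 and 0.572 FPKM. All Ednrb-/- trunk libraries were below all Ednrb-/- caudal ones, while the WT regions overlapped. The Ednrb-/- difference was -0.50 ± 0.17 (adjusted p = 0.035), on 10 to 48 reads per library. This call was lost without a filter on low genes (adjusted p = 0.069), with TPM, which scales the length-corrected values of each library to 1 common sum, in place of FPKM (0.053), and without any of Ednrb-/- trunk 2, 3 or 4 or Ednrb-/- caudal 2, 3 or 4 (0.058 to 0.11).

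Pax6 is active in most progenitors outside the Nkx2-2 domain and excludes Nkx2-2 from them. It lies on chromosome 2 from 105499245 to 105527709 on the plus strand (ENSMUSG00000027168, mm39). In WT trunk it was 1.98, 2.27, 2.73 and 2.18 FPKM, and in Ednrb-/- trunk 3.40, 3.11, 2.66 and 3.49 FPKM. The groups met only where Ednrb-/- trunk 3 fell below WT trunk 3. The rise in Ednrb-/- trunk was 1.31-fold (0.39 ± 0.11, 95% interval 0.16 to 0.63, adjusted p = 0.016). It did not pass without Ednrb-/- trunk 4 (0.35, adjusted p = 0.052).

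In caudal tissue Pax6 was 3.34, 3.16, 4.57 and 3.07 FPKM in WT and 3.82, 4.03, 3.61 and 3.59 FPKM in Ednrb-/-. Here the genotypes overlapped (0.09 ± 0.11, adjusted p = 0.53), and the 4 WT caudal libraries were all above the 4 WT trunk ones. Trunk was 1.44-fold lower than caudal tissue in WT (-0.52 ± 0.11, 95% interval -0.76 to -0.29, adjusted p = 0.0041). In Ednrb-/- embryos the regions also did not overlap, and the smaller difference of -0.22 ± 0.11 did not pass (adjusted p = 0.13).

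Irx3 is present in progenitors from the p2 domain dorsally and is absent from the motor neuron domain; it is also active in limb and other mesoderm. The promoter of Irx3, like that of Nkx6-1, matched none of the 5 motifs. The caudal values were 8.91, 11.54, 12.5 and 15.1 FPKM in WT and 13.9, 16.9, 16.3 and 18.2 FPKM in Ednrb-/-. The top WT library exceeded the lowest Ednrb-/- one, and 3 of 4 Ednrb-/- libraries lay above all WT ones. Irx3 rose 1.36-fold (0.44 ± 0.14, 95% interval 0.14 to 0.74, adjusted p = 0.02). The call was lost with TPM (0.34, adjusted p = 0.057), without WT caudal 1 (0.31, adjusted p = 0.071), without Ednrb-/- caudal 4 (0.39, adjusted p = 0.061), and without the 3 libraries holding Xist and Ddx3y (0.43, adjusted p = 0.07).

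In trunk, Irx3 was 9.64, 8.36, 9.47 and 9.35 FPKM in WT and 10.4, 12.4, 10.7 and 15.9 FPKM in Ednrb-/-. All Ednrb-/- trunk libraries were above all WT trunk libraries, and the difference of 0.39 ± 0.14 missed the threshold (adjusted p = 0.056). It passed without Ednrb-/- trunk 1 (0.46, adjusted p = 0.04), without Ednrb-/- trunk 3 (0.45, adjusted p = 0.049) and with only the groups compared in the fit (adjusted p = 0.043). In Ednrb-/- embryos Irx3 was 1.32-fold lower in trunk than in caudal tissue (-0.40 ± 0.14, adjusted p = 0.037). That call was lost under 4 other settings and without any of 6 libraries (Ednrb-/- trunk 1, 2 and 3, Ednrb-/- caudal 2, 3 and 4), with an adjusted p of 0.17 without the 3 libraries holding Xist and Ddx3y.

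Dbx1 marks the p0 progenitors at the middle of the neural tube, which make V0 interneurons. It (ENSMUSG00000030507) is on the minus strand of chromosome 7, 49281247 to 49286597 in mm39. The WT trunk libraries had 3.04, 3.08, 4.90 and 3.95 FPKM and the WT caudal libraries 5.38, 8.36, 9.40 and 5.18 FPKM. All WT caudal libraries were above all WT trunk libraries, with WT caudal 2 and 3 the highest. Trunk was 1.76-fold lower (-0.82 ± 0.18, 95% interval -1.20 to -0.44, adjusted p = 0.0055).

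In Ednrb-/- embryos Dbx1 was 5.18, 4.67, 4.39 and 4.79 FPKM in trunk and 7.54, 7.73, 5.43 and 7.92 FPKM in caudal tissue. The regions again did not overlap, by the narrow gap between Ednrb-/- trunk 1 and Ednrb-/- caudal 3. The difference was -0.53 ± 0.18 (adjusted p = 0.03). It was lost without a filter (adjusted p = 0.069), with TPM (0.051), and without any of 6 libraries (Ednrb-/- trunk 2, 3 and 4 and Ednrb-/- caudal 1, 2 and 4), with values from 0.05 to 0.081. Neither genotype difference passed, at 0.33 ± 0.18 in trunk (adjusted p = 0.2) and 0.04 ± 0.18 in caudal tissue (adjusted p = 0.87).

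Dbx2, which covers p0 and its neighbours on both sides, was low throughout, from 0.314 to 0.856 FPKM. WT trunk libraries (0.314 to 0.527 FPKM) lay below WT caudal libraries (0.552 to 0.796 FPKM) without overlap, and the difference of -0.34 ± 0.14 did not pass (adjusted p = 0.1). Its other differences lay between -0.11 and 0.17.

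Gsx2, with Gsx1, marks the dI3 to dI5 progenitors of the dorsal neural tube, which make sensory interneurons. The gene lies on chromosome 5 from 75236262 to 75238554 on the plus strand (ENSMUSG00000035946, mm39). WT trunk libraries had 0.813, 1.26, 1.24 and 1.21 FPKM and Ednrb-/- trunk libraries 0.569, 0.463, 0.589 and 0.506 FPKM. Every WT trunk library was above every Ednrb-/- trunk library, including WT trunk 1, which was the low one of its group. On the scale of FPKM + 0.5, Gsx2 fell 1.57-fold (-0.65 ± 0.15, 95% interval -0.97 to -0.33, adjusted p = 0.0058). Its mean was 1.13 FPKM in WT trunk and 0.532 FPKM in Ednrb-/- trunk, a larger fold without the added 0.5. The read numbers were 52 to 89 in WT trunk and 27 to 40 in Ednrb-/- trunk.

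In caudal tissue Gsx2 was 0.586, 0.230, 0.722 and 0.375 FPKM in WT and 0.212, 0.408, 0.337 and 0.379 FPKM in Ednrb-/-, and the genotypes overlapped (-0.21 ± 0.15, adjusted p = 0.29). WT trunk libraries were all above WT caudal ones. The WT difference between regions was 1.69-fold (0.75 ± 0.15, 95% interval 0.43 to 1.08, adjusted p = 0.003). In Ednrb-/- embryos the regions did not overlap and the difference of 0.31 ± 0.15 did not pass (adjusted p = 0.12).

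Gsx1 had group means of 1.47 ± 0.246 (WT trunk), 1.19 ± 0.298 (Ednrb-/- trunk), 1.68 ± 0.248 (WT caudal) and 1.35 ± 0.415 FPKM (Ednrb-/- caudal; SD, n = 4). All groups overlapped. Its genotype differences were -0.24 ± 0.16 in trunk (adjusted p = 0.32) and -0.26 ± 0.16 in caudal tissue (adjusted p = 0.22), with intervals that reach from -0.61 to 0.11 over both regions.

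Msx3 is a dorsal homeobox gene of the neural tube. Its trunk values were 9.57, 10.8, 12.9 and 12.3 FPKM in WT and 9.61, 9.33, 8.10 and 8.24 FPKM in Ednrb-/-. The lowest WT library, WT trunk 1, was just below Ednrb-/- trunk 1, and the other 3 WT libraries were above all Ednrb-/- ones. Msx3 fell 1.27-fold (-0.35 ± 0.12, 95% interval -0.59 to -0.10, adjusted p = 0.042). The call was lost without a filter (adjusted p = 0.09), without any of WT trunk 2, 3 and 4 or Ednrb-/- trunk 2, 3 and 4 (0.057 to 0.12), and without the 3 libraries holding Xist and Ddx3y (0.13).

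In caudal tissue Msx3 was 9.44, 9.46, 13.2 and 8.99 FPKM in WT and 8.02, 10.7, 8.99 and 9.41 FPKM in Ednrb-/-. WT caudal 3 was high and the other libraries of both genotypes were mixed. The difference of -0.13 ± 0.12 did not pass (adjusted p = 0.41).

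Whether the genotype difference itself depends on region was tested as the interaction, the caudal minus the trunk difference. It passed for 0 of the 10 factors by limma, for 0 at an unadjusted p under 0.05 and for 0 by limma voom on the recovered reads, where 6.76% of all genes passed in the limma fit. The largest was that of Gsx2, at 0.44 ± 0.21 (95% interval -0.01 to 0.90, adjusted p = 0.23). That of Pax6 was -0.30 ± 0.16 (95% interval -0.63 to 0.03, adjusted p = 0.26). The differences of Pax6, Gsx2 and Msx3 seen in trunk are therefore not shown to be absent from caudal tissue, nor that of Irx3 from trunk.

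The members were also set against 4 genes of general neural progenitors. For this, the mean log2 level of Sox1, Sox2, Sox3 and Hes5, which are active in ventricular zone progenitors at most dorsoventral positions, was subtracted in each library. The reference itself averaged 2.76 ± 0.266 in WT trunk, 2.95 ± 0.181 in Ednrb-/- trunk, 3.02 ± 0.210 in WT caudal and 3.23 ± 0.171 in Ednrb-/- caudal tissue (SD, n = 4). Of its genes, Sox1 (0.45 ± 0.16, adjusted p = 0.031) and Hes5 (0.52 ± 0.15, adjusted p = 0.0091) rose in Ednrb-/- caudal tissue, so part of each relative difference there is the reference's own. They were the only 2 of 12 general neural progenitor genes called higher there, and the median of the 12 was -0.07. Relative values in caudal tissue are therefore relative to these 4 genes, not to progenitor RNA at large. The reference mean was also higher in Ednrb-/- than in WT trunk, and in caudal than in trunk tissue of each genotype. The other relative comparisons therefore hold a part of the reference's own as well. The Sox1 call was lost under 6 of 19 alternatives (adjusted p 0.066 to 0.12).

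On this relative scale 2 of the 3 dorsal factors fell in Ednrb-/- trunk, Gsx2 by 0.85 ± 0.21 (adjusted p = 0.012) and Msx3 by 0.54 ± 0.13 (adjusted p = 0.015). Their level differences were smaller, at -0.65 and -0.35, and the rest of each relative fall is the rise of the reference. The third, Gsx1, did not pass (-0.43 ± 0.20, adjusted p = 0.22). These were 2 of 10, and 6.07% of all genes were called. Relative Gsx2 was -2.21 to -1.87 in WT trunk and -3.19 to -2.65 in Ednrb-/- trunk, without overlap. Relative Msx3 was 0.69 to 0.92 in WT trunk and -0.07 to 0.45 in Ednrb-/- trunk, also without overlap. The Gsx2 call was lost without WT trunk 2 (adjusted p = 0.07), Ednrb-/- trunk 2 (0.05) or Ednrb-/- trunk 4 (0.065), and the Msx3 call without WT trunk 2 (0.058) or Ednrb-/- trunk 4 (0.093).

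In caudal tissue 0 of 10 relative genotype differences passed by limma, 3 had an unadjusted p under 0.05 and 1 passed by voom, with 13.7% of all genes called. Of the 10 relative differences 9 were negative, and the median was -0.27. Before the subtraction 4 of the 10 were positive and the median was -0.06. The subtraction lowered every gene's difference alike, as the reference averaged 3.02 in WT and 3.23 in Ednrb-/- caudal tissue. The 9 negative signs are therefore not a fall shared by the factors' own levels. Relative Msx3 stood at 0.30 to 0.45 in WT caudal and 0.04 to 0.07 in Ednrb-/- caudal libraries without overlap, and its difference of -0.33 ± 0.13 did not pass (adjusted p = 0.1). Relative Gsx2 was -3.34 to -2.90 and -3.59 to -3.43 in the same groups (-0.41 ± 0.21, adjusted p = 0.19).

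Between WT regions, relative Gsx2 was higher in trunk by 1.02 ± 0.21 (adjusted p = 0.002) and relative Dbx1 differed by -0.55 ± 0.17 (adjusted p = 0.045), 2 of 10 against 7.54% of all genes. Relative Pax6, in contrast to its level, did not pass (-0.26 ± 0.15, adjusted p = 0.23). Between Ednrb-/- regions relative Nkx2-2 (0.91 ± 0.21, adjusted p = 0.0024) and Gsx2 (0.58 ± 0.21, adjusted p = 0.049) were higher in trunk, 2 of 10 against 16.7% of all genes. The Dbx1 call was lost under 11 of 19 alternatives and this Gsx2 call under 15 of 18. Without the 3 libraries holding Xist and Ddx3y they stood at -0.42 (adjusted p = 0.16) and 0.52 (adjusted p = 0.27).

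**Figure D3:**
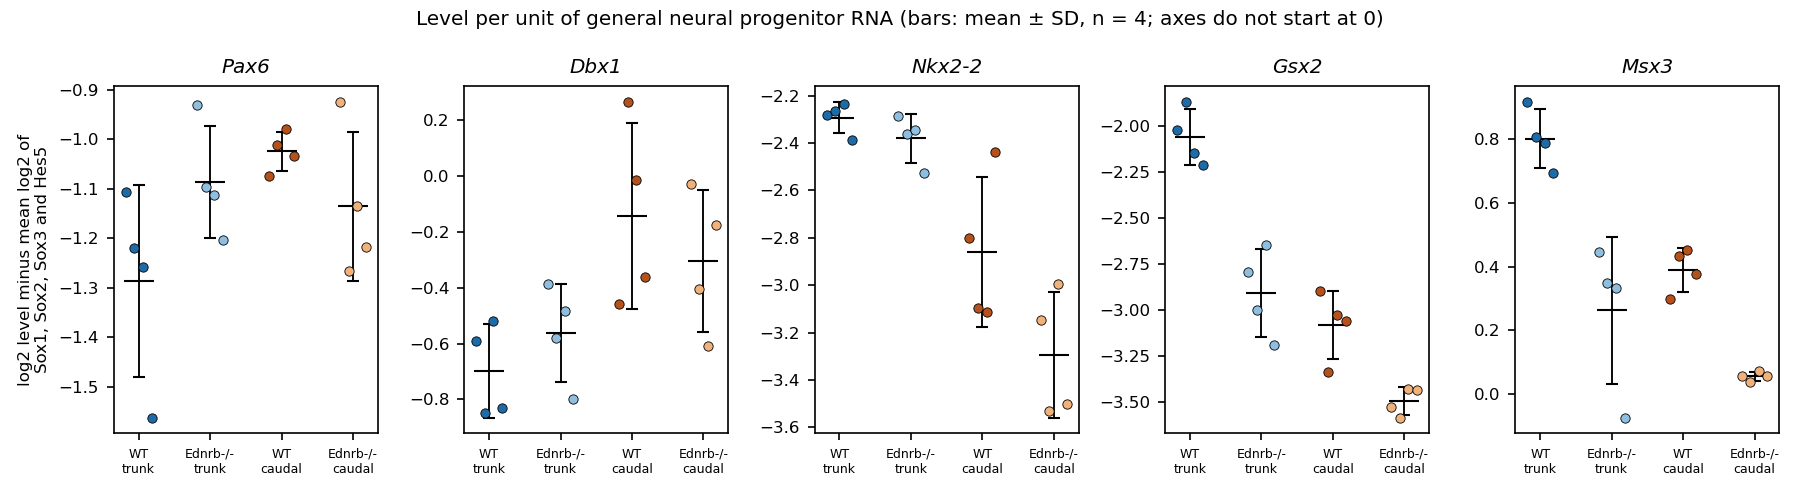
Log2 level of 5 factors minus the mean log2 level of Sox1, Sox2, Sox3 and Hes5 in each library (vertical axes do not start at 0), with mean and SD (n = 4). Gsx2 and Msx3 lie lower in Ednrb-/- than in WT libraries of the same region without overlap, and Nkx2-2 lies higher in trunk than in caudal libraries of each genotype. By limma, the caudal differences of Gsx2 (adjusted p = 0.19) and Msx3 (0.1) did not pass. Nor did that of Nkx2-2 between WT regions (0.57 ± 0.21, adjusted p = 0.088).

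Related pairs were compared by the ratio of their FPKM, with no test. Gsx1 to Gsx2 was 1.32 ± 0.195 (SD, n = 4) in WT trunk and 2.22 ± 0.494 in Ednrb-/- trunk, and these libraries did not overlap (1.09 to 1.54 and 1.63 to 2.82). It was 4.04 ± 1.68 and 4.12 ± 1.06 in WT and Ednrb-/- caudal tissue, where ranges overlapped. Dbx1 to Dbx2 lay between 6.34 and 18.9 in all libraries and overlapped between all groups. Nkx6-1 to Nkx6-2 reached 36.3 in Ednrb-/- trunk 4, the library with 10 Nkx6-2 reads, and otherwise lay between 4.55 and 17.6. Pax6 to Nkx2-2, a pair that repress each other at their border, was 2.64 ± 0.499 in WT trunk and 3.19 ± 0.0946 in Ednrb-/- trunk. In caudal tissue that ratio was 6.09 ± 2.23 in WT and 8.60 ± 2.06 in Ednrb-/-, each above all trunk libraries (at most 3.32).

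**Figure D4:**
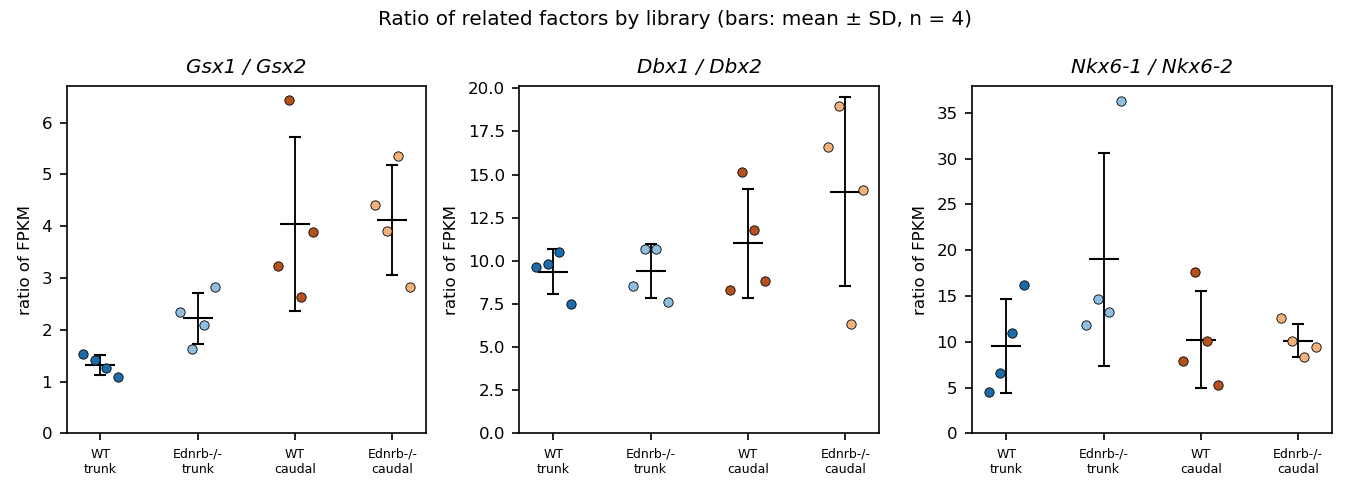
Ratio of FPKM of 3 pairs of related factors in each library (vertical axes from 0), with mean and SD (n = 4). Gsx1 to Gsx2 is lowest in WT trunk (1.09 to 1.54), and a single Ednrb-/- trunk library sets the high Nkx6-1 to Nkx6-2 value of 36.3.

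Profiles over the 16 libraries were compared by the mean absolute difference of log2 levels after centring each gene. Among 12303 protein-coding candidates, the gene closest to Pax6 was Spata13 (0.0594), followed by Pax3 (0.0747), a dorsal neural tube and dermomyotome factor. Dbx1 was closest to Ptch1 (0.160), the Sonic hedgehog receptor and target. Nkx6-1 was closest to Sox3 (0.107), Irx3 to Cdc6 (0.106) and Lmx1b (0.108), and Nkx2-2 to St6galnac5 (0.105) and Pbx3 (0.113). Gsx2 was closest to the neuronal adhesion gene Nrcam (0.138) and Msx3 to Adcyap1r1 (0.0978). For scale, the members' own mean absolute deviations ran from 0.166 for Msx3 to 0.345 for Dbx1, and among the members the closest pair was Pax6 and Dbx2 (0.157). The libraries share group and depth across genes, so these are descriptions without a test.

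Other progenitor genes were counted in the same way. Of 19 measured domain factors outside the 10, 5 rose and 7 fell in Ednrb-/- caudal tissue, and 9 rose and 3 fell in Ednrb-/- trunk. Among all genes tested 21.7% rose and 19.9% fell in caudal tissue, and 12.2% rose and 13.0% fell in trunk. Olig2, the motor neuron progenitor factor next to the Nkx2-2 domain, rose from 1.15 ± 0.264 to 5.52 ± 2.48 FPKM in caudal tissue (1.80 ± 0.22, adjusted p = 2.5e-05) and from 0.391 ± 0.0533 to 0.937 ± 0.401 FPKM in trunk (0.66 ± 0.22, adjusted p = 0.043). Foxa2, of the floor plate and notochord, rose by 0.76 ± 0.14 in caudal tissue (adjusted p = 0.0006) and by 0.42 ± 0.14 in trunk (adjusted p = 0.041). The trunk calls of Olig2 and Foxa2 were lost under 12 and 10 of 19 alternatives (adjusted p 0.051 to 0.14 and 0.051 to 0.12), and Olig2 was highest in Ednrb-/- trunk 4 at 1.54 FPKM. Dorsally, Atoh1 of the dI1 progenitors rose by 1.56 ± 0.18 in trunk (adjusted p = 5.3e-05) and was level in caudal tissue at 2.51 ± 0.697 and 2.52 ± 0.762 FPKM. Lmx1a, of the roof plate, fell by 0.37 ± 0.10 in caudal tissue (adjusted p = 0.0059) and by 0.68 ± 0.10 in trunk (adjusted p = 0.00019). The list medians were -0.02 and 0.27.

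Patterning signals and their targets had 6 of 14 measured genes higher and 0 lower in Ednrb-/- in each region, with medians of 0.25 and 0.22. Shares over all genes were 21.7% higher and 19.9% lower in caudal tissue, and 12.2% and 13.0% in trunk. Shh rose from 6.07 ± 0.360 to 11.2 ± 1.31 FPKM in caudal tissue (0.83 ± 0.11, adjusted p = 4.2e-05), and its trunk difference was 0.20 ± 0.11 (adjusted p = 0.2). In which tissue of the dissected piece Shh and Foxa2 rose was not tested. Aldh1a2, which makes retinoic acid, rose by 0.86 ± 0.15 in caudal tissue (adjusted p = 0.00043) and by 0.59 ± 0.15 in trunk (adjusted p = 0.012). Rarb, a retinoic acid receptor and target, rose by 0.47 ± 0.08 (adjusted p = 0.0003) and 0.43 ± 0.08 (adjusted p = 0.0013). Between WT regions 10 of the 14 were lower in trunk and 0 higher, against 8.35% and 9.69% of all genes.

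Markers of general progenitors and of neurons were counted next. For comparison, 21.7% of all genes rose and 19.9% fell in Ednrb-/- caudal tissue, and 12.2% rose and 13.0% fell in Ednrb-/- trunk. Of 12 general neural progenitor genes, 2 rose and 1 fell in each region with genotype, the fall being that of Fabp7, a radial glia gene (-1.46 ± 0.16 caudal, adjusted p = 1.2e-05; -0.98 ± 0.16 trunk, adjusted p = 0.00067). All 12 neuronal genes fell in Ednrb-/- caudal tissue (median -1.16), and 2 of 12 fell in Ednrb-/- trunk (median -0.24). The summed neuronal level was 451 to 618 FPKM in WT caudal and 176 to 327 FPKM in Ednrb-/- caudal libraries, and 540 to 716 and 525 to 604 FPKM in WT and Ednrb-/- trunk libraries. Of 22 genes of the neurons born from the domains, 4 rose and 12 fell in caudal tissue (median -0.42), and 1 rose and 6 fell in trunk (median -0.01). Lbx1, of the dI4 to dI6 interneurons, fell by 1.06 ± 0.13 in trunk (adjusted p = 6.2e-05) and by 0.44 ± 0.13 in caudal tissue (adjusted p = 0.013). Other genes of this list did not all go the same way. Lmx1b averaged 2.19 FPKM in WT and 2.61 in Ednrb-/- trunk, and 2.84 and 3.97 FPKM in WT and Ednrb-/- caudal tissue. Tlx3 averaged 5.89 and 4.56 FPKM in WT and Ednrb-/- trunk, and 6.53 and 2.28 FPKM in WT and Ednrb-/- caudal tissue. The summed FPKM of the 10 members was 30.1 to 39.0 in WT trunk, 32.6 to 40.9 in Ednrb-/- trunk, 36.6 to 50.3 in WT caudal and 40.4 to 50.0 in Ednrb-/- caudal libraries. Genotypes overlapped in that sum in each region. The part of neuronal content in the members' differences was not tested.

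**Figure D5:**
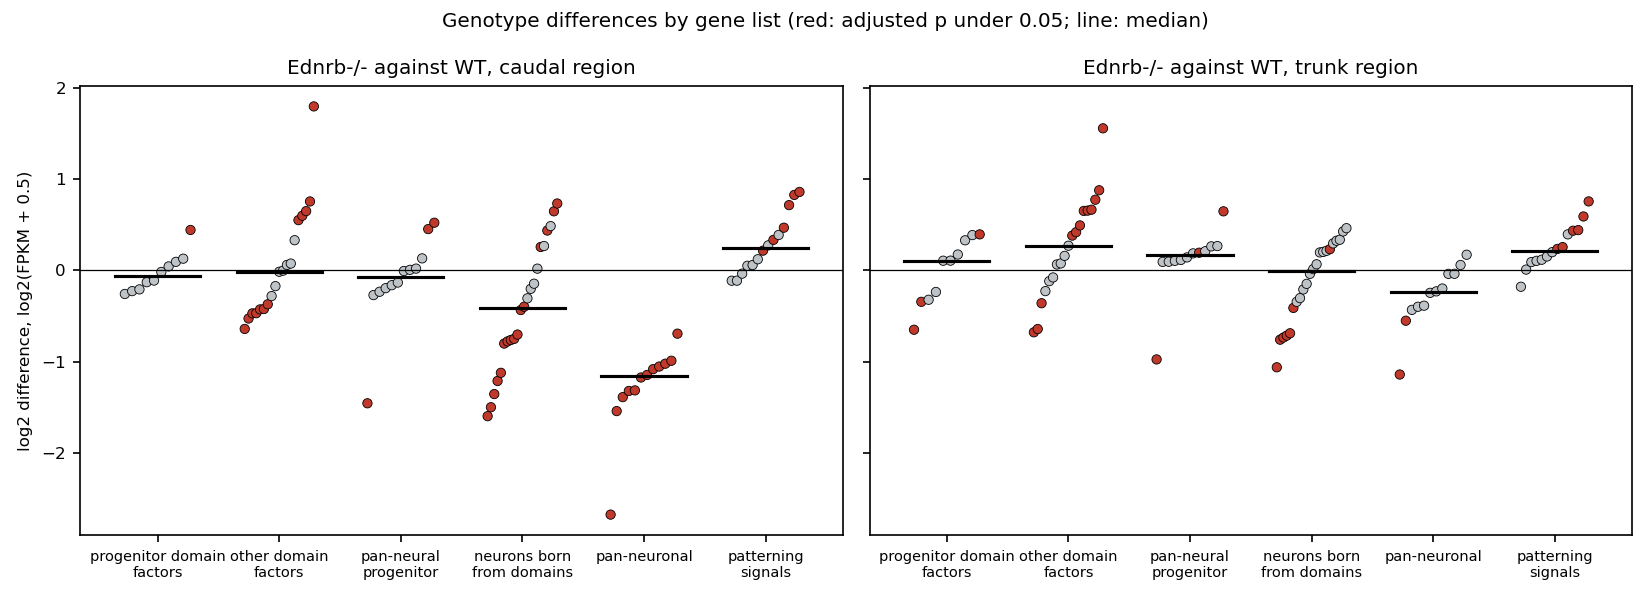
Log2 differences with genotype (vertical axis, log2(FPKM + 0.5)) of the 10 factors and of 5 further gene lists in caudal (left) and trunk tissue (right), red where the adjusted p is under 0.05, with the median as a line. The members lie between -0.65 and 0.44, while all 12 neuronal genes fell in caudal tissue.

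Several members are also active outside the spinal cord: Pax6, Nkx2-2 and Nkx6-1 in the pancreas, Pax6 in the eye and forebrain, and Gsx2 in the forebrain. Of 10 pancreas and gut endocrine genes, 6 did not reach the filter, among them Pdx1 (at most 0.0266 FPKM), Ins1 (0 in all libraries), Ins2 (at most 0.0207) and Gcg (at most 0.111). The list's summed level was 14.7 to 17.0 FPKM in WT trunk, 14.3 to 15.1 in Ednrb-/- trunk, 12.2 to 15.3 in WT caudal and 8.19 to 10.1 in Ednrb-/- caudal libraries, carried by Isl2, Chga and Neurog3, which neurons or neural progenitors also use. Of 10 head genes 8 did not reach it, and Otx2 and Crx were at 0 in all libraries and Rax at most at 0.0170 FPKM. The head list's sum, 9.93 to 12.7, 12.8 to 14.4, 2.84 to 8.52 and 8.24 to 9.35 FPKM in the same order of groups, was mostly Emx2, which is also a urogenital gene. Of 10 mesoderm genes 2 rose and 0 fell with genotype in each region, and 0 were higher and 6 lower in WT trunk than in WT caudal tissue. The all-gene shares were 21.7% higher and 19.9% lower in Ednrb-/- caudal tissue, and 12.2% and 13.0% in Ednrb-/- trunk. In WT trunk 9.69% of all genes were higher and 8.35% lower than in WT caudal tissue. Their sum was 130 to 145, 162 to 168, 179 to 207 and 205 to 235 FPKM in the 4 groups, without overlap between genotypes in trunk and with overlap in caudal tissue. This sum was not tested, and its part in the differences of Irx3 and the other members was not tested.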

How the data were processed

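The 16 RNA-seq libraries were placed in 4 groups by the genotype and region in their titles. Per the submitters' processing notes, the authors used fastp, HISAT2 2.0.5 and featureCounts 1.5.0-p3 on mm39; the annotation release and strand setting: not given in the sources used here. The deposited values were FPKM in 1 table, per the file headers. FPKM times gene length, divided by 1 step per library, gave whole reads for 100% of values within 0.01, which supplied depth (34883821 to 43444905 reads in listed genes). The library total implied by that step was 0.949 to 1.03 times the reads in listed genes. A total below those reads is not plain depth, and how it was set is not stated. Replicates differed by more than sampling noise in every group (chi-square per degree of freedom 5.46 to 16.1). Same-numbered samples of different groups did not deviate together (24 pairs, correlations -0.0836 to 0.109), so numbers were not used as pairs.

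The main test was limma 3.58.1 (R 4.3.3) with trend, on log2(FPKM + 0.5), one mean for each of the 4 groups, for genes at 0.5 FPKM or more in 4 libraries or more. The procedure was tested on simulated data. The design also foresaw an exact permutation test for members under that filter, and there were 0 such members. The reference of Sox1, Sox2, Sox3 and Hes5 was subtracted per library and the model refitted on all genes. Members and lists were chosen with earlier results of these data known. Named besides the members are Ednrb, the reference genes, up to 4 genes per list with the smallest adjusted p in either genotype comparison, list genes of other tissues near 0, and the 2 closest profiles per member; some of these are not reported here. Pairs for ratios were chosen after values were seen. Alternatives were other pseudocounts (0.1, 1) and filters (none, 1 FPKM), TPM, median-of-ratios scaling, only the groups compared, a replicate block, voom on whole reads, omission of each library, and omission of the 3 libraries holding both Xist and Ddx3y; the sum of listed reads as total was added after the data were examined. Promoters came from RefSeq (GRCm38.p6); coordinates of genes are those deposited (mm39), counted from 1. Figures used Python 3.11.15 and matplotlib 3.10.9.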

Additional observations from a re-analysis of the deposited data

Results flagged for a closer look

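Single libraries stood apart from the other 3 of their group by Dixon's criterion in 7 of 200 groups of 4 tested over 50 genes, where chance gives about 1 in 20. Among the members, Dbx1 was 5.43 FPKM in Ednrb-/- caudal 3 and 7.54 to 7.92 in the others. That library is among the 3 that held Xist and Ddx3y together. Gsx2 was 0.813 FPKM in WT trunk 1 against 1.21 to 1.26, and Msx3 was 13.2 FPKM in WT caudal 3 against 8.99 to 9.46. Among other genes, Olig2 was 1.54 FPKM in Ednrb-/- trunk 4 against 0.733 to 0.740, and Lhx5, of dorsal and ventral interneurons, was 8.43 FPKM in WT trunk 1 against 12.8 to 13.5. Cyp26a1, which degrades retinoic acid, was 1.36 FPKM in Ednrb-/- caudal 2 against 2.01 to 2.10, and Emx2 was 7.11 FPKM in Ednrb-/- caudal 1 against 8.28 to 8.36.

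The interaction of genotype and region passed for 14 other named genes (limma, caudal minus trunk genotype difference, log2 scale, Benjamini-Hochberg adjusted over all genes). These genes had been named for the smallest adjusted p of their list in either genotype comparison, which favours an interaction call. Their number is therefore no test of the lists, and 6.76% of all genes passed. The genotype difference was more negative in caudal tissue for the neuronal genes Slc17a6 (-1.54, adjusted p = 0.016), Stmn2 (-1.11, adjusted p = 0.018), Snap25 (-0.84, adjusted p = 0.016) and Map2 (-0.75, adjusted p = 0.04). The interneuron factors Tlx3 (-1.01, adjusted p = 0.024) and Lhx1 (-1.07, adjusted p = 0.017) and the progenitor genes Pou3f2 (-0.78, adjusted p = 0.028) and Atoh1 (-1.56, adjusted p = 0.0049) had the same sign. It was more positive for Olig2 (1.14, adjusted p = 0.043), Shh (0.63, adjusted p = 0.028) and Lbx1 (0.63, adjusted p = 0.05, just under the threshold before rounding). Of the posterior Hox genes, Hoxc12 (-1.02, adjusted p = 0.0069), Hoxc13 (-0.95, adjusted p = 0.039) and Hoxd13 (0.67, adjusted p = 0.031) passed. In trunk Hoxc12 was 0 in every library and Hoxc13 and Hoxd13 were at most 0.110 and 0.200 FPKM, so these 3 values restate the caudal difference and do not compare regions. Of these 14, 5 (Slc17a6, Stmn2, Snap25, Lhx1 and Atoh1) passed under all 26 alternatives, and 9 were lost under 1 or more, from Hoxc12 under 1 (voom, adjusted p = 0.72) to Lbx1 under 21.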

How the results depend on the processing

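Of 1116 values of single members recomputed, 993 kept direction and side of the threshold, 71 lost a call, 10 gained one and 42 changed sign, all of the last being differences that did not pass. The calls of Gsx2 with genotype in trunk, of Pax6, Dbx1 and Gsx2 between WT regions and of Nkx2-2 between Ednrb-/- regions held under each alternative that gave a value. The number of members called in caudal tissue with genotype fell from 1 to 0 with TPM and was 0 to 1 with single libraries left out. In trunk it was 3, 2 without a filter, with the filter at 1 FPKM or without the 3 libraries holding Xist and Ddx3y, 4 with only the groups compared or the replicate block, and 1 (without Ednrb-/- trunk 4) to 4 with single libraries left out. Between Ednrb-/- regions it fell from 4 to 1 with TPM and to 1 without a filter, and was 1 to 3 with single libraries left out. Relative to the progenitor reference, the caudal genotype count went from 0 to 1 with voom. The trunk genotype count went from 2 to 1 with the filter at 1 FPKM, which leaves fewer members, and was 0 to 2 with single libraries left out. The relative count between WT regions went from 2 to 1 with pseudocount 0.1, either other filter, only the groups compared, the replicate block or the 3 libraries with Xist and Ddx3y left out, and was 1 to 3 with single libraries left out. Between Ednrb-/- regions it went from 2 to 1 with pseudocount 1, either other filter, TPM, only the groups compared, the replicate block, voom, the sum of listed reads, or those 3 libraries left out, and was 1 to 2 with single libraries left out. The cause of these shifts was not tested. The replicate block, although the numbers do not pair samples, gave an adjusted p of 0.017 for Irx3 with genotype in trunk, 0.037 for Irx3 between WT regions and 0.06 for Nkx6-2 between Ednrb-/- regions.

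Signs turned only for small differences. With TPM, Dbx1 was -0.053 with genotype in caudal tissue, Irx3 -0.019 and Nkx6-1 -0.050 in the interaction, and Msx3 0.0045 between Ednrb-/- regions. In the same comparisons Dbx1 was -0.022 and Nkx6-1 -0.0071 with voom, and listed reads as total gave -0.021 and -0.0086. With pseudocount 0.1 Nkx6-2 was 0.0061 with genotype in caudal tissue. Without the 3 libraries holding Xist and Ddx3y, Dbx2 was 0.12 between Ednrb-/- regions, and in the interaction Irx3 was -0.016 and Nkx6-1 -0.039. With single libraries left out, the genotype difference in caudal tissue ranged from -0.081 to 0.19 for Dbx1, -0.0013 to 0.22 for Nkx6-1 and -0.19 to 0.11 for Nkx6-2. In trunk it ranged from -0.0054 to 0.19 for Nkx2-2 and -0.051 to 0.22 for Nkx6-1. Between Ednrb-/- regions the ranges were -0.13 to 0.063 for Dbx2, -0.24 to 0.011 for Gsx1 and -0.13 to 0.0014 for Msx3. In the interaction they were -0.16 to 0.091 for Gsx1, -0.073 to 0.18 for Irx3 and -0.11 to 0.18 for Nkx6-1.

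Over all genes, the interaction called 1163 genes, 571 without a filter and 585 without Ednrb-/- caudal 4 (606 to 673 without WT trunk 1, Ednrb-/- trunk 1, Ednrb-/- trunk 3, WT caudal 1 or Ednrb-/- caudal 2). WT regions gave 3103, and 1912 without the 3 libraries. In caudal tissue 3732 genes were higher and 3432 lower in Ednrb-/-, but 2216 and 5028 with TPM, 2613 and 4447 with voom, and 2671 and 4360 by listed reads. Median-of-ratios scaling gave 3735 and 3429. In trunk 2092 and 2229 became 1729 and 2965 with voom and 1643 and 2740 with the sum. Between Ednrb-/- regions 2982 and 3252 became 3946 and 1943 with TPM, and in the interaction 513 and 650 became 298 and 1129 with TPM and 447 and 1187 with voom. Depth limits the precision of Nkx6-2, Gsx2, Nkx2-2, Dbx2 and Gsx1, which had 10 to 129 reads per library. The interaction with only the groups compared was not run, since it needs all 4 groups.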

Other observations

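Members were also set against neurons of their own lineage and against a general neuronal gene, as FPKM ratios without a test; these pairs were chosen after values were seen. The ratio of Dbx1 to Evx1, a V0 interneuron gene, was 5.38 ± 0.854 (SD, n = 4) in WT trunk, 5.52 ± 0.819 in Ednrb-/- trunk and 5.12 ± 1.57 in WT caudal tissue. In Ednrb-/- caudal tissue it was 2.72 ± 0.457, with libraries from 2.28 to 3.26, below the lowest library of every other group (3.71). Evx1 itself rose from 1.38 ± 0.0859 to 2.66 ± 0.554 FPKM in Ednrb-/- caudal tissue (limma, 0.73 ± 0.11, adjusted p = 0.00013), while Dbx1 averaged 7.08 and 7.15 FPKM there.

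The ratio of Nkx2-2 to Sim1, a V3 interneuron gene, was 0.296 ± 0.0697 in WT trunk and 0.283 ± 0.0528 in Ednrb-/- trunk, and 0.460 ± 0.0761 and 0.393 ± 0.0622 in WT and Ednrb-/- caudal tissue. Sim1 was higher in trunk than in caudal tissue in both genotypes (0.94 ± 0.10, adjusted p = 1.9e-05 in WT; 1.28 ± 0.10, adjusted p = 4.9e-07 in Ednrb-/-). Nkx2-2 itself differed by 0.31 ± 0.15 (adjusted p = 0.18) and 0.64 ± 0.15 (adjusted p = 0.0037). Pax6 per unit of Tubb3, a neuronal tubulin, was 0.0189 ± 0.00234 in WT caudal and 0.0439 ± 0.0143 in Ednrb-/- caudal tissue, without overlap, as Tubb3 fell from 187 ± 26.6 to 91.8 ± 26.04 FPKM. In trunk the ratio was 0.0105 ± 0.000819 in WT and 0.0167 ± 0.00197 in Ednrb-/-, also without overlap. Tubb3 averaged 218 and 190 FPKM in WT and Ednrb-/- trunk.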
